A study of Mus musculus with 6 samples.

Results

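The genes described here build, load and switch on the MHC class II molecules that show peptides from engulfed proteins to CD4 T cells. They are H2-Aa, H2-Ab1, H2-Eb1, Cd74, H2-DMa, H2-DMb1, H2-Oa, H2-Ob, Ciita and Ctss. All probe sets listing only these genes were taken, which gave 17 of the 45037 probe sets used and covered 9 of the 10 genes. H2-DMb1 has no probe set of its own. Its signal is read by 2 probe sets that also list H2-DMb2, and 1 further probe set lists H2-Ob with Gm20506. These 3 shared probe sets are shown beside the members and are not counted among them.

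Mouse macrophages were hybridised to 6 Affymetrix arrays, 1 per sample. Wild-type macrophages were kept in medium (n = 1) or given lipopolysaccharide, LPS, a bacterial cell wall component (n = 1). These arrays are called the LPS pair. LPS-treated macrophages of the Trib1 line were wild type (n = 2) or Trib1 KO (n = 2), each numbered 1 and 2, and no medium array of that line was analysed here. Trib1 is a pseudokinase that helps to degrade C/EBP transcription factors. The labels give no tissue of origin, strain, age, LPS dose or time, and do not say how the Trib1 gene was inactivated or whether like-labelled arrays came from separate animals or cultures. A p-value here therefore measures only the spread between these samples, which may be technical.

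The class II molecule is a pair of membrane chains, alpha and beta. The invariant chain encoded by Cd74 holds the new pair in shape and guides it to endosomes, where the protease cathepsin S, from Ctss, trims the invariant chain down to a short peptide. H2-DM swaps that peptide for antigen peptides and H2-DO restrains H2-DM. Ciita encodes the coactivator CIITA, which binds no DNA itself and acts through factors sitting on paired promoter elements called the X and Y boxes. Resting macrophages express little class II and interferon gamma raises it through Ciita.

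The promoter stretches that carry these boxes are shown because they are the shared element of this family. RefSeq (GRCm38.p6) gave a window of 300 bases, 250 before and 50 after the start, for 7 of the 10 members, and none for H2-Ab1, Cd74 and Ciita. The search was for GNAAC, the core of the X box, followed after 15 to 40 bases by GATTGG, the Y box, on either strand with no overlap between them. The letters were chosen after these promoters had been read. The pair was found in 5 of the 7 members and in 1.45% of 32851 windows in the table. The stretches run 5′ to 3′ on the gene's strand with both elements in capitals.
H2-Aa (chr17:34287857-34287914, minus strand): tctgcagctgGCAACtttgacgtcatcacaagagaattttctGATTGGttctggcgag
H2-Eb1 (chr17:34305766-34305822, plus strand): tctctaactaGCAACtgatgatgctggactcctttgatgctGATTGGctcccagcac
H2-DMb1 (chr17:34153087-34153144, plus strand): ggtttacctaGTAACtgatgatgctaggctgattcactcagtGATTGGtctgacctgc
H2-Oa (chr17:34092293-34092350, plus strand): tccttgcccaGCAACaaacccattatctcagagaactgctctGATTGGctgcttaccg
H2-Ob (chr17:34238808-34238862, plus strand): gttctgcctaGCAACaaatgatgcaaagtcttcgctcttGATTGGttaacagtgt
All of them lie upstream of the start, with 24 to 27 bases between the elements and the X core beginning 76 to 94 bases before it. The pair was not in the 2 windows of H2-DMa or in that of Ctss, which says only that these letters are not in those windows.

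Values are scaled intensities: each array was brought to a common trimmed mean of 234, and values under a floor of 29.9 cannot be told from background. The share of probe sets past the floor ran from 57.9% to 63.0%. The LPS pair stood apart from the Trib1 line in its deposited scale (trimmed mean 500 against 95.5 to 106.6) and in sex-linked genes, with Xist (1427262_at) at 1616 and 980.5 on its arrays and 2.03 to 5.56 on the 4 others. Trib1 itself did not check the labels: on its probe set 1424880_at it measured 17.9 and 17.5 on wild type 1 and 2, against 88.1 and 20.9 on KO 1 and 2, so the arrays are called knockout-labelled. In a bulk sample, fewer cells of a type and less RNA per cell cannot be told apart.

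**Figure D1:**
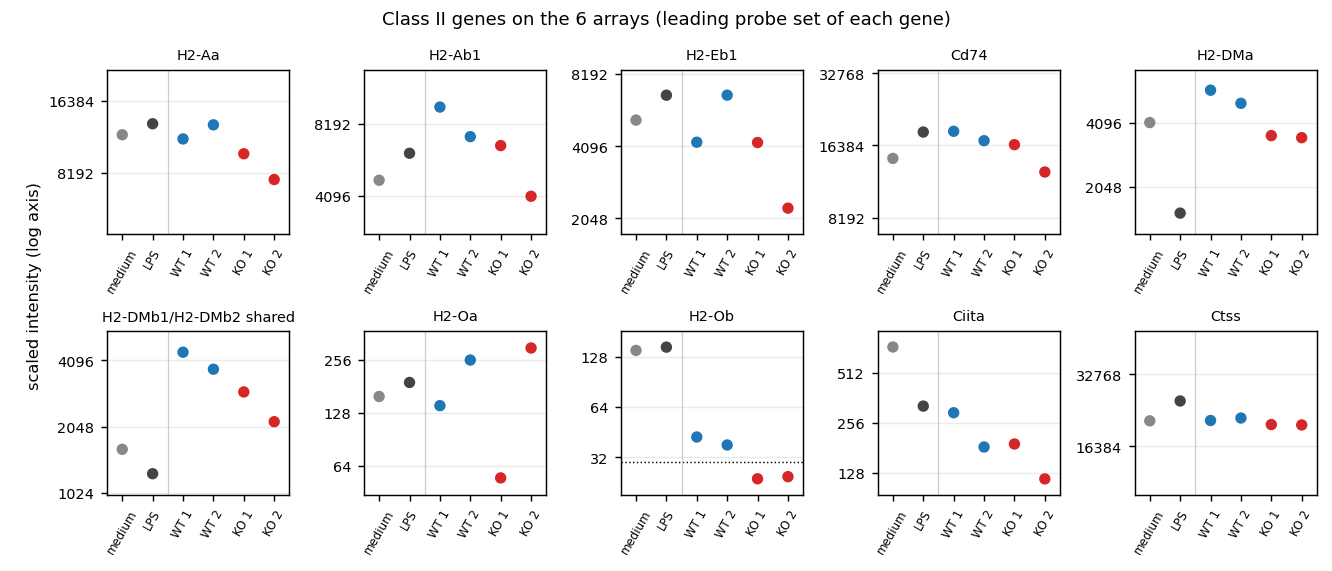
Scaled intensity (log axis) of the leading probe set of each class II gene, with a shared probe set for H2-DMb1, on the 6 arrays, 1 point per array. Grey and black are the LPS pair, blue wild type and red knockout-labelled arrays of the Trib1 line, and the dotted line is the floor of 29.9. Red points lie under both blue points in 8 of the 10 panels, and not for H2-Oa or Ciita.

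The question of the LPS pair is which genes LPS induces. No class II gene changed by 4-fold in either direction: 0 of 17 member probe sets were higher and 0 lower, where 0.986% of 29115 probe sets (those past the floor in medium or after LPS) were higher and 0.598% lower. The median log2 ratio over the 17 was 0.10, and -0.09 over all probe sets above the floor. At a rule of 2-fold, 3 members were lower and 0 higher, against a background of 6.29% lower and 5.02% higher. Those 3 were H2-DMa and a pair of Ciita probe sets. With 1 array per condition no test or error applies.

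The chains of the surface molecule were high in medium and stayed so. H2-Aa, the alpha chain of the I-A molecule, measured 11815 in medium and 13131 after LPS on its leading probe set (the one with the highest mean over the 6 arrays), and 11348 and 12996 on wild type 1 and 2. H2-Ab1, its beta chain, measured 4759 in medium, 6168 after LPS, and 9617 and 7237 on wild type 1 and 2. All 3 wild-type LPS arrays lay above medium on each of the 3 H2-Ab1 probe sets. H2-Eb1, the beta chain of the I-E molecule, measured 5259 in medium and 6681 after LPS, with 4252 and 6684 on wild type 1 and 2, on both sides of the medium value. Cd74 measured 14460 in medium, 18630 after LPS, and 18765 and 17145 on the Trib1-line wild types. All 3 of these LPS values lie above medium.

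Ciita ran the other way. Its leading probe set 1421210_at measured 731.6 in medium and 321.9 after LPS, and 293.6 and 182.4 on wild type 1 and 2. On 1421211_a_at the values were 510.3, 188.9, 130.1 and 116.0 in the same order, and on 1447075_at 172.6, 88.7, 62.4 and 31.1. Every wild-type LPS array thus lay under medium on all 3 Ciita probe sets, by 1.95-fold to 5.56-fold. Setting the medium array against the 3 wild-type LPS arrays gave log2 differences of -1.50 (SE 0.42), -1.85 (SE 0.45) and -1.63 (SE 0.67), with limma Benjamini-Hochberg adjusted p of 0.348, 0.256 and 0.598 (n = 1 and 3). None passed. That fit assumes that the lone medium array varies like the others.

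Over the whole family the same fit called 0 of 17, with 3 at an unadjusted p under 0.05, all lower and all Ciita; over 28430 probe sets it called 0.158% higher and 0.0106% lower, and 4.51% were lower at that unadjusted p. All 3 wild-type LPS arrays lay below medium for 4 of the 17 and above it for 6. Over all probe sets these shares were 29.2% and 25.5%, so neither count stands away from the background. Without the LPS array of the LPS pair, the 2 Trib1-line wild types against medium gave 3 calls: Ciita 1421211_a_at (-2.05, adjusted p = 0.0166) and 1421210_at (-1.66, adjusted p = 0.0356) were lower and H2-Ab1 1425477_x_at (1.05, adjusted p = 0.0447) was higher by limma. In that fit 4.26% of 26894 probe sets were called, and treatment, line and sex cannot be told apart.

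H2-DM, the peptide editor, differed between the 2 sources of LPS-treated wild-type macrophages. Within the LPS pair, with 1 array per condition, only its leading H2-DMa probe set changed by 2-fold. H2-DMa, its alpha chain, measured 4108 in medium and 1538 after LPS (2.67-fold lower) there. On wild type 1 and 2 it measured 5837 and 5063, both above medium, so the LPS arrays lie on both sides of medium. The shared H2-DMb1 and H2-DMb2 probe set 1449580_s_at measured 1613 and 1249 on the LPS pair and 4467 and 3738 on the Trib1-line wild types. So the 2 LPS-treated wild-type sources do not overlap for either chain, and the array of the LPS pair is the lower. H2-Ob, the beta chain of H2-DO, went the opposite way on its own probe set only. There it measured 139.3 and 145.7 on the LPS pair but 42.3 and 37.9 on wild type 1 and 2. Its signal on the probe set shared with Gm20506 did not separate the lines. That one gave 86.7 in medium and 103.4 after LPS, with wild type 1 below them (81.9) and wild type 2 above (132.5). H2-Oa, the alpha chain, measured 158.3 and 190.1 on the LPS pair and 140.4 and 254.8 on the Trib1-line wild types, which span both. Ctss was steady, with 20955 in medium, 25363 after LPS, and 21024 and 21526 on the wild types.

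**Figure D2:**
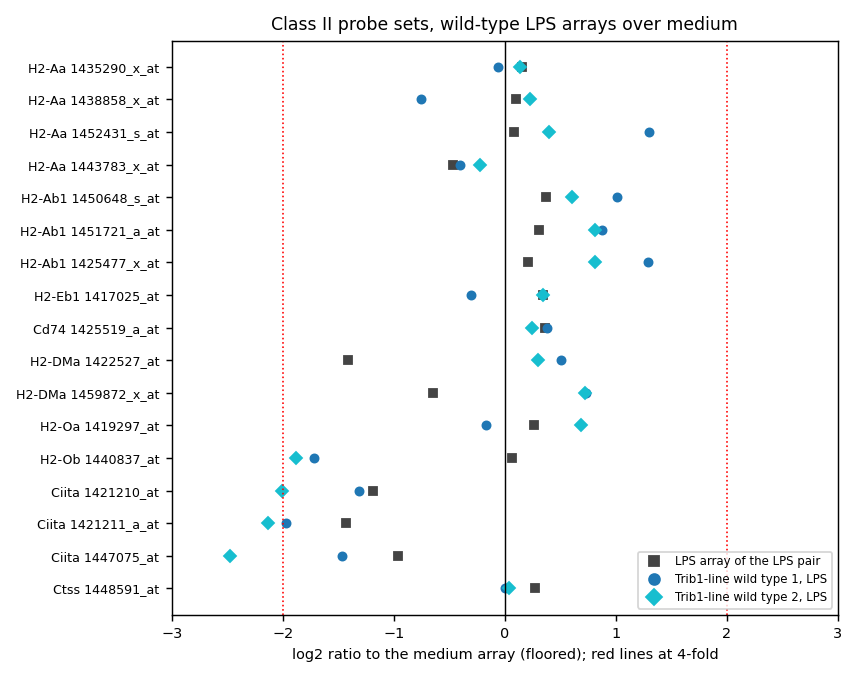
Log2 ratio of each wild-type LPS array to the single medium array for the 17 class II probe sets, with squares for the LPS pair and circles and diamonds for wild type 1 and 2 of the Trib1 line. All Ciita points lie left of 0, all H2-Ab1 points right of 0, and the square stays inside the red 4-fold lines in every row.

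The other 4 arrays ask how loss of Trib1 changes LPS-treated macrophages. On the leading probe sets of the class II chains, Cd74, H2-DMa and the shared H2-DMb1 signal, both knockout-labelled arrays lay below both wild types, by 1.24-fold to 1.72-fold on average, and none of these differences passed the test across all probe sets. All 17 member probe sets had a log2 difference under 0, from -1.09 to -0.08, with a median of -0.59. The median over all 29078 probe sets tested was -0.01. Limma called 0 of 17 at a Benjamini-Hochberg adjusted p under 0.05, where 0% of all probe sets were called, and the smallest adjusted p of a member was 0.899. At an unadjusted p under 0.05, 4 of 17 were lower and 0 higher, against 2.71% lower and 2.28% higher over all probe sets.

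H2-Aa measured 11348 and 12996 on wild type 1 and 2, against 9842 and 7681 on KO 1 and 2. The groups do not overlap, and KO 2 is the lowest (log2 difference -0.48, SE 0.20, 95% interval -0.97 to 0.01, n = 2 per genotype, limma adjusted p = 0.999). Without KO 2 the difference was -0.30. Of its 3 other probe sets, 1452431_s_at and 1443783_x_at also had separate groups. On 1438858_x_at the wild types measured 5578 and 11047 and the knockout-labelled arrays 7340 and 3801, so KO 1 lay between the wild types.

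H2-Ab1 measured 9617 and 7237 on wild type 1 and 2, against 6641 and 4080 on KO 1 and 2, again separate (log2 difference -0.68, SE 0.29, interval -1.39 to 0.03, limma adjusted p = 0.999, n = 2 per genotype). On its probe set 1451721_a_at the values were 8080 and 7753 against 6183 and 4452, and on 1425477_x_at 7458 and 5373 against 4414 and 4372. The 3 probe sets gave differences from -0.68 to -0.53. The first was -0.33 without KO 2 and -1.03 without KO 1. The gene thus showed the same order on each of them, with both knockout-labelled arrays lower.

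H2-Eb1 measured 4252 and 6684 on wild type and 4241 and 2256 on knockout-labelled arrays. KO 1 lay just under wild type 1, so the separation rests on a very small gap and the difference (-0.79, SE 0.37, interval -1.69 to 0.12, limma adjusted p = 0.999, n = 2 per genotype) comes mostly from KO 2. It was -0.33 without KO 2, -0.46 without wild type 2 and -1.24 without KO 1. Cd74 measured 18765 and 17145 on wild type and 16504 and 12689 on knockout-labelled arrays (-0.31, SE 0.20, interval -0.80 to 0.18, limma adjusted p = 0.999, n = 2 per genotype). Its groups are separate by a small margin, and the difference was -0.12 without KO 2 and -0.50 without KO 1.

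H2-DMa measured 5837 and 5063 on wild type and 3566 and 3487 on knockout-labelled arrays, 1.54-fold lower (log2 -0.62, SE 0.17, interval -1.03 to -0.21, unadjusted p = 0.0102, limma adjusted p = 0.899, n = 2 per genotype). Its probe set 1459872_x_at measured 410.9 and 409.7 against 251.5 and 241.9. On both probe sets the groups are separate, with like arrays close together. Wild-type macrophages of the LPS pair gave 1538 and 158.6 on these probe sets after LPS, under the knockout-labelled values. Counting that array as a further wild type moved the differences to -0.02 and -0.28 (limma adjusted p = 1 and 0.999, n = 3 and 2), so the H2-DMa difference is one between the Trib1-line arrays alone. The shared H2-DMb1 and H2-DMb2 probe sets had separate groups too: 1449580_s_at measured 4467 and 3738 against 2944 and 2155 (log2 -0.70, SE 0.22, limma adjusted p = 0.950, n = 2 per genotype), and 1418638_at measured 2035 and 2232 against 1426 and 891.2.

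Of the H2-DO chains, H2-Ob was near the floor and H2-Oa above it on all 6 arrays. H2-Ob measured 42.3 and 37.9 on wild type and 23.8 and 24.5 on knockout-labelled arrays, both under the floor, at least 1.34-fold lower (limma adjusted p = 0.999, n = 2 per genotype). It entered the test only through its wild-type values. The probe set shared with Gm20506 measured 81.9 and 132.5 against 70.6 and 41.2. H2-Oa measured 140.4 and 254.8 on wild type and 54.6 and 298.3 on knockout-labelled arrays, so the genotypes overlap fully and like arrays differ more than the genotypes do.

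Ciita, the family's coactivator, measured 293.6 and 182.4 on wild type and 190.2 and 117.1 on knockout-labelled arrays on its leading probe set. KO 1 lay just above wild type 2, so the groups overlap (log2 -0.63, SE 0.40, interval -1.62 to 0.35, limma adjusted p = 0.999, n = 2 per genotype). The difference was -0.28 without KO 2 and -0.29 without wild type 1, and -0.98 without either of the other arrays in turn. On 1421211_a_at the values were 130.1 and 116.0 against 34.7 and 95.4, separate, and on 1447075_at they were 62.4 and 31.1 against 19.7 and 41.5, overlapping. Ctss measured 21024 and 21526 on wild type and 20215 and 20143 on knockout-labelled arrays, a gap of 1.05-fold between groups that are separate (log2 -0.08, SE 0.16, interval -0.48 to 0.32, limma adjusted p = 0.999, n = 2 per genotype).

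Counted over the family, both knockout-labelled arrays lay below both wild types for 13 of the 17 probe sets and above for 0. Over all tested probe sets these shares were 16.3% and 15.4%. All 17 passed the filter on low values, and 15 were above the floor on all 6 arrays, of which 12 were lower without overlap. By gene, 7 of 9 leading probe sets were lower without overlap and 0 higher. The 7 include H2-Ob, which was under the floor on both knockout-labelled arrays and entered the test only through its wild-type values. Several probe sets read the same gene and all share the same 4 arrays, so the 13 are not independent observations. KO 2 was the lowest of the 4 arrays for 12 of the 17, against 21.7% of all probe sets, and KO 1 for 5, where it was the lowest for 8172 of all 29078. KO 1 was below wild type 1 for 16 of 17 (14541 of 29078 overall), and KO 2 below wild type 2 for 15 (14757 of 29078).

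**Figure D3:**
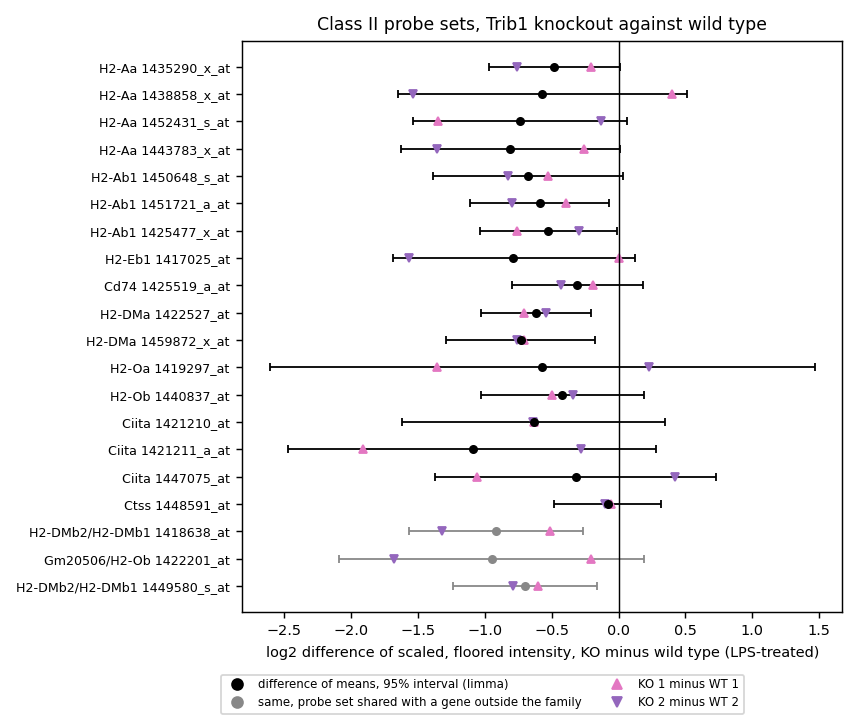
Log2 difference of scaled intensity, knockout-labelled minus wild type, for the 17 class II probe sets (black) and the 3 shared ones (grey), as limma estimates with 95% intervals, with triangles for KO 1 minus WT 1 and KO 2 minus WT 2. Every estimate lies left of 0 and most intervals cross it.

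The class II pathway was followed beyond the members through 42 measured genes in 4 lists. Limma called 0 of the 82 of their probe sets tested between genotypes, in either direction, and 1 was lower and 2 higher at an unadjusted p under 0.05. Over all 29078 probe sets tested, 0% were called, and 2.71% were lower and 2.28% higher at that unadjusted p. The pathway counts thus do not stand away from the background. The 2 higher ones were both of Marchf1, which encodes a membrane ubiquitin ligase that removes class II from the cell surface. Marchf1 measured 385.8 and 421.5 on wild type and 1103 and 741.1 on knockout-labelled arrays on 1434955_at, with 616.0 in medium and 387.3 after LPS on the LPS pair. All 3 wild-type LPS arrays are low and close together, and both knockout-labelled arrays lie above them and above medium. The difference was 2.24-fold (log2 1.16, SE 0.26, unadjusted p = 0.00442, limma adjusted p = 0.872, n = 2 per genotype). On 1440209_at the values were 261.0 and 209.9 against 560.6 and 412.0 (log2 1.04, SE 0.27, limma adjusted p = 0.899, n = 2 per genotype). Medium measured 411.1 on that probe set, level with KO 2. The probe set 1431367_at lay near the floor on every array (29.5 to 52.8) with a difference of -0.39.

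The other genes of class II suppression and turnover were mixed, with 2 of 7 lower and 2 of 7 higher without overlap (16.3% and 15.4% of all tested probe sets) and a median difference of -0.08. Il10ra, a chain of the receptor for interleukin 10, was the probe set lower at an unadjusted p under 0.05, with 1351 and 1126 on wild type and 847.5 and 704.7 on knockout-labelled arrays (log2 -0.67, SE 0.20, unadjusted p = 0.0175, limma adjusted p = 0.950, n = 2 per genotype). On its weaker probe set 1437808_x_at the difference ran the other way (log2 1.06), with overlap. There the wild types measured 91.3 and 5.02, the second under the floor, against 90.2 and 132.4. Cd83, which opposes Marchf1 on the cell surface, measured 7935 and 5575 against 5338 and 3181 (-0.69, limma adjusted p = 0.999, n = 2 per genotype). That difference was -0.32 without KO 2, -0.44 without wild type 1 and -1.06 without KO 1. Il10, a cytokine that restrains class II, measured 56.6 and 53.6 against 224.8 and 65.2, so its difference of 1.14 rests on KO 1. Il10 was also higher after LPS in the LPS pair, 185.7 against 38.9 in medium (4.77-fold).

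Among interferon gamma genes 1 of 7 was lower and 1 higher without overlap, near the shares of 16.3% and 15.4% over all tested probe sets, with a median difference of 0.12. Ifng itself, the cytokine that induces Ciita, was under the floor in medium and measured 903.9 after LPS, at least 30.2-fold higher. It measured 126.4 and 412.4 on wild type and 106.9 and 90.9 on knockout-labelled arrays (log2 -1.21, SE 0.59, limma adjusted p = 0.999, n = 2 per genotype). The groups are separate, but KO 1 is close to wild type 1, and the difference was -0.36 without wild type 2 and -2.07 without wild type 1. Ifngr1, a chain of its receptor, measured 343.2 and 343.8 against 526.2 and 434.6 (0.48), Ifngr2 differed by 0.30 and Socs3, a feedback inhibitor of cytokine signalling, by 0.22, with overlap for the last 2. With LPS, Jak2, a kinase of that receptor, went from 1398 to 5149 (3.68-fold) and Socs3 from 6764 to 15896 (2.35-fold).

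Of 14 transcription genes 13 passed the filter, all but Myb, and 5 were lower and 2 higher without overlap (16.3% and 15.4% of all tested probe sets), with a median of -0.10. Of the factors that hold the X box, Rfx5 differed by -0.25 (interval -0.88 to 0.38), Rfxap by -0.13 and Rfxank by 0.11 on their leading probe sets. Other probe sets, all with overlap, gave 0.38 for Rfxap (1455303_at), and -0.49 (1419310_s_at) and -0.05 (1425670_at) for Rfxank. Irf8, a factor of macrophage and dendritic lineages, measured 10080 and 12588 on wild type and 9227 and 8017 on knockout-labelled arrays (-0.39), separate on this probe set and overlapping on 1448452_at. Kdm6b, a histone demethylase, measured 486.1 and 1105 against 1138 and 1384 (0.78), separate by a small gap, and its other probe sets overlapped. Creb1, which can bind beside the X box, differed by -0.47 and Irf4 by -0.51 (with overlap and near the floor, 26.2 to 83.4). In the LPS pair, Kdm6b went from 1256 to 3508 (2.79-fold), Irf8 from 13759 to 20243 (1.47-fold) and Creb1 from 646.0 to 377.4. Rfxank had no common direction there. It went from 95 to 165.4 (1.74-fold) on its leading probe set. It fell from 97.2 to 37.8 on 1419310_s_at and from 58.4 to 40.2 on 1425670_at.

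Processing genes had 3 of 14 lower and 2 of 14 higher without overlap, near the shares of 16.3% and 15.4% over all tested probe sets, and a median of -0.03. Ifi30, the lysosomal thiol reductase that unfolds antigens, measured 4186 and 6640 on wild type and 3142 and 4134 on knockout-labelled arrays (-0.55, SE 0.28, limma adjusted p = 0.999, n = 2 per genotype). Cst7, an inhibitor of cathepsins, measured 1666 and 2756 against 853.9 and 1624 (-0.86, SE 0.38, limma adjusted p = 0.999, n = 2 per genotype). Both are separate by a narrow gap, with wild type 1 next to KO 2. The proteases Ctsl and Lgmn each differed by 0.25. In the LPS pair Cst7 measured 99 in medium and 473.7 after LPS (4.79-fold), Ifi30 7482 and 4692, Sppl2a, which cleaves the invariant chain remnant, 1490 and 2460, and Cd44, a partner of CD74 at the cell surface, 8831 and 13180.

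**Figure D4:**
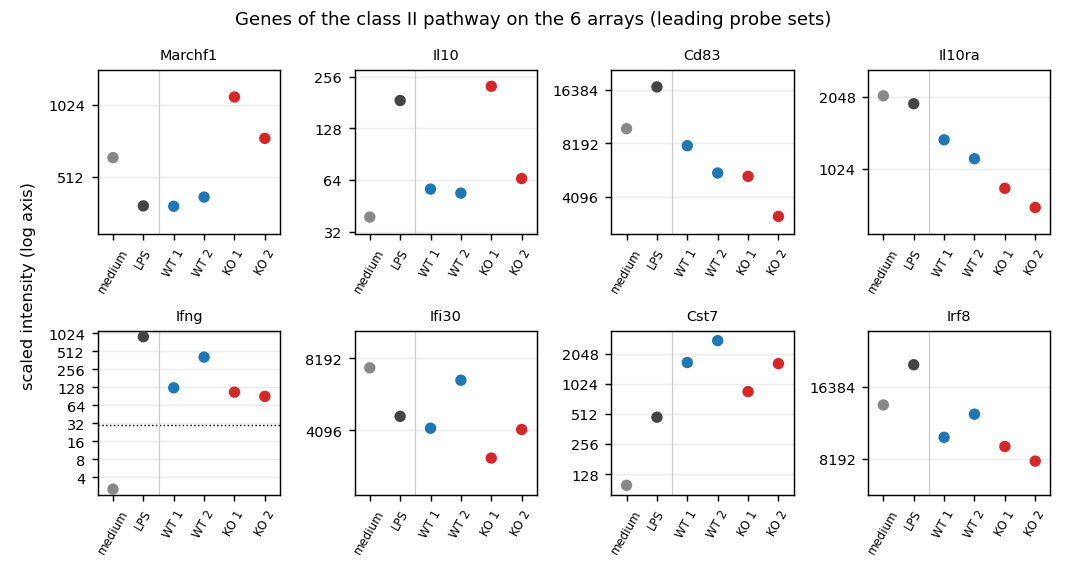
Scaled intensity (log axis) of 8 genes of the class II pathway on the 6 arrays, colours as in the plot of the class II genes. Marchf1 is higher on both red arrays than on any other, Il10 is highest on KO 1, and Cd83, Il10ra, Ifng, Ifi30, Cst7 and Irf8 are lower on both red arrays than on both blue ones.

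Class II is also made by B cells and dendritic cells, so their markers are given beside these values. Of 9 B cell markers measured (of 10 listed), 6 were lower without overlap on the knockout-labelled arrays and 0 higher (16.3% and 15.4% of all tested probe sets), with a median difference of -0.81. Blk (0.09) and Vpreb3 (0.38) had differences above 0, with overlap. Of the 9, 3 were under the floor on some arrays. Among the 6, Cr2 measured 42.6 and 64.2 on wild type and 19 and 29.7 on knockout-labelled arrays, both under the floor. It entered the test only through its wild-type values. Fcer2a, also among the 6, was under the floor on KO 2 (18.9). The summed level of the 9 was 755.8 and 1032 on wild type, 474.5 and 741.5 on knockout-labelled arrays, and 1672 and 2836 on the LPS pair. Ms4a1, which encodes CD20, measured 189.3 and 225.2 against 76.5 and 145.2, and Cd79a, a chain of the B cell receptor, 116.8 and 149.4 against 66.5 and 82.8. Limma called 0 of them. The part of these cells in the class II values was not tested.

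Of 8 dendritic cell markers measured (of 9), 3 were lower without overlap and 0 higher (16.3% and 15.4% of all tested probe sets), with a median of -0.33, and their part was likewise not tested. Their summed level was 3808 and 4897 on wild type, 1914 and 2807 on knockout-labelled arrays and 1701 and 2298 on the LPS pair. Most of that sum is Itgax, the CD11c integrin chain that macrophages also express, at 3031 and 4055 against 1244 and 2233 (log2 -1.07, SE 0.32, limma adjusted p = 0.950, n = 2 per genotype). Without KO 1 the Itgax difference was -0.65. The others of the 3 were Siglech and Cd209a. Siglech measured 73.9 and 37.1 against 36 and 20.5, separate by a small gap and under the floor on KO 2. Cd209a measured 87.9 and 91.8 against 75.8 and 53.4. Itgax, Ccr7, Batf3 and Cd209a were above the floor on all 6 arrays, with Ccr7 at 69.7 to 381.4 and Batf3 at 115.9 to 364.7. The other 4 were under it on some arrays: Flt3 measured 13.8 to 59.6, Xcr1 25.3 to 51.7, Siglech 10.1 to 73.9 and Zbtb46 24.2 to 124.0.

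For the labelled cell type, all 8 macrophage markers were above the floor on all 6 arrays. Their sum was 77078 and 84793 on wild type and 91160 and 91270 on knockout-labelled arrays, with 5 of 8 higher and 1 lower without overlap (15.4% and 16.3% of all tested probe sets). Cd14, an LPS co-receptor, measured 13871 and 14874 against 23075 and 19999, and Itgam, the CD11b chain, 1441 and 1555 against 2256 and 2411, while Cd68 and Lyz2 differed by 0.06 and -0.06. Markers of large peritoneal macrophages summed to 7659 and 9939 on wild type, 4421 and 9146 on knockout-labelled arrays and 18822 and 19371 on the LPS pair. Most of the sum on the LPS pair is Cd5l, at 12139 and 12487. Timd4 was lower on the LPS pair (1053 and 1394) than on wild type 1 and 2 (4609 and 6369). Of these 7 markers, 3 were lower without overlap on knockout-labelled arrays and 0 higher (16.3% and 15.4% of all tested probe sets). Markers of small peritoneal macrophages and monocytes summed to 578.4 and 1146 on wild type, 566.0 and 410.1 on knockout-labelled arrays and 7215 and 5393 on the LPS pair. T and NK cell markers summed to 322.4 and 466.1, 347.2 and 377.8, and 286.8 and 510.2 in the same order. None of these lists had a limma call, and their part in the class II values was not tested.

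**Figure D5:**
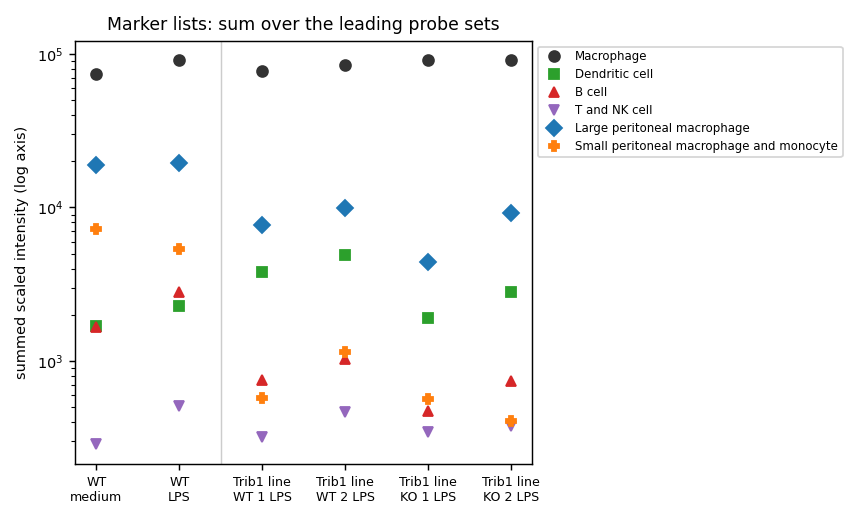
Summed scaled intensity (log axis) of 6 marker lists on each of the 6 arrays, adding the leading probe set of each measured gene. B cell and dendritic cell sums are lower on both knockout-labelled arrays than on both wild types of the Trib1 line, and B cell sums are highest on the LPS pair.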

How the data were processed

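MAS5 was used by the authors to make the deposited values, per the submitters' processing notes, and these are linear intensity per probe set. Version, scaling target and genome build are not given in the sources used here. All arrays were brought to the same mean (2% trimmed at each end) with the control probe sets included, and these were then left out. Values under the pooled 40th percentile were raised to it, and log2 was taken, so differences near the floor are understated. The genotype fit used limma 3.58.1 under R 4.3.3 (eBayes with a trend, two-sided, Benjamini-Hochberg over all probe sets past the floor on 2 or more of its 4 arrays, threshold 0.05), since an exact permutation test of 2 against 2 cannot go below p = 0.333. The number of arrays limits the precision. Probe sets were named from GEO's platform annotation. From each pathway list the 4 genes with the largest difference per comparison are named, with Ifng and Marchf1; Rfx5, Rfxap and single marker genes were picked after their values were seen. Members and lists were chosen with earlier results of these data known. The fit was also run on simulated data, with changes much larger than those of the members and a common spread for all probe sets. That run therefore does not show whether differences as small as those of the members would be found. Alternatives are given in the closing section.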

Additional observations from a re-analysis of the deposited data

How the results depend on the processing

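No member probe set that could be tested, and none of the pathway lists, was called between genotypes under any of the 13 alternatives run (other scalings, floors, filter and prior, an added wild type, the number as a block, or an array left out). The smallest adjusted p of a member by limma was 0.0944, with the replicate block. At an unadjusted limma p under 0.05, 12 of 17 members were lower with that block and 4 without it. Over all 29078 probe sets 1807 were lower with it and 788 without it. Among the cell type markers, Itgax was called with that block (limma adjusted p = 0.0408, against 0.950). Over all probe sets the replicate block gave 116 calls and leaving out an array between 5 and 68, against 0. Whether the numbers pair the arrays is not stated in the labels, and same-numbered arrays deviated together with r = 0.35 across 29078 probe sets, which for 2 pairs settles nothing. Of 113 member log2 differences under alternatives (3 of these alternatives applied to single genes after seeing the data), 112 kept their direction and none passed. H2-Oa ran from -1.79 without KO 2 to 0.66 without KO 1, a reversal. H2-Ob could not be tested in 4 of the 13 (deposited values, the highest floor, and without either wild type). For LPS against medium, members past the fold rule numbered 3 at 2-fold and 3 with wild type 2 in place of the LPS array, against 0. All probe sets past the rule numbered 461 (287 higher, 174 lower), 1605 without rescaling (790 and 815), 966 with the floor at the 25th percentile, 3293 and 99 at 2-fold and 8-fold, and 936 with wild type 2 as the LPS array. Medium against wild-type LPS arrays gave between 0 and 3 member calls when an LPS array was left out. The causes were not tested. Rescaling moved the median genotype difference of all probe sets between -0.01 and 0.06.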

Other observations

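Other mouse class II genes on the array were not among the members. H2-Eb2, an I-E beta-like gene, measured 88 and 68.4 on wild type and 143.2 and 140.5 on knockout-labelled arrays, and in the LPS pair 63.7 without and 149.0 with LPS. Its direction was opposite to that of every member (log2 0.87, SE 0.35, limma adjusted p = 0.992, n = 2 per genotype). H2-DMb2 measured 109.7 and 200.2 on wild type and 151.7 and 78 on knockout-labelled arrays on its leading probe set, with overlap. Its other probe sets were lower without overlap, at 183.4 and 192.7 against 161.8 and 115.7 on 1419744_at and 71.3 and 111.6 against 69.3 and 37.6 on 1443686_at. H2-Ea, the I-E alpha chain, lay at or under the floor on several arrays, measuring on 1422892_s_at 5.65 in medium, 50.2 after LPS in the same line, 180.1 and 45.4 on wild type 1 and 2, against 23.9 and 133.9 on KO 1 and 2.

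Over 17634 single-gene probe sets above the floor on all 6 arrays, the profile most like the mean of H2-Aa, H2-Ab1, H2-Eb1 and Cd74 was that of another class II gene, H2-DMb2, on 1419744_at (Pearson r = 0.995 over 6 arrays). That likeness is of 1 of its 3 probe sets: the leading one measured 289.0 and 429.7 on the LPS pair, above the 4 other arrays, and runs differently. The next were Opn3 (r = 0.990), Ccdc186 (r = 0.972), Pold3 (r = 0.970), Urm1 (r = 0.969), Mapk8ip3 (r = 0.958), Xrn1 (r = 0.955) and Ube2l6 (r = 0.952). These are descriptions over 6 arrays that share a scaling, picked from many probe sets. Among the members, H2-Aa and H2-Eb1 ran together (r = 0.97), H2-Aa and H2-Ab1 less so (r = 0.52), and H2-DMa did not follow Cd74 (r = -0.10).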
